A study of Xenopus tropicalis with 27 samples.

Results

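The thyroid hormone axis of the tadpole brain was followed through 9 genes: the receptors thra and thrb with their partner rxra, the deiodinases dio1, dio2 and dio3, the carrier ttr, and the response genes klf9 and thibz. Genes were taken by symbol from 2 tables of read counts, a time course of 16049 genes and a drug experiment of 16212 genes. Of the 9 genes, 7 had a row in at least 1 table and 6 had a row in both. The gene thibz had a row in the drug table alone, and dio1 and ttr were not analysed here. All 6 genes of the time course and all 7 of the drug table passed the filter on low counts, which removed no gene from either table.

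RNA of Xenopus tropicalis brains was sequenced in 27 libraries, 3 in each of 9 groups. Drug brains were dissected at stage 46; from stage 30 the tadpoles had been kept in 10 µM β-estradiol, an estrogen, or in 5 µM cyclopamine, a plant alkaloid that blocks the Hedgehog transducer Smoothened. DMSO, the solvent, served as their control, and 3 brains were pooled in each of these libraries. The time course used untreated wild-type brains at stages 40, 42, 44, 45, 46 and 47. Labels did not tie replicates to separate clutches, so p-values cover only the spread between these libraries, part of which may be technical.

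Thyroid hormone leaves the gland mainly as thyroxine. In target cells the deiodinase encoded by dio2 converts it to triiodothyronine, the form that binds the receptors with high affinity, and the deiodinase encoded by dio3 inactivates both forms. The receptors pair with retinoid X receptors on DNA, repress target genes without hormone and activate them with it. In Xenopus the hormone drives metamorphosis, and thrb, klf9 and thibz are among the direct response genes that it induces.

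Total depth ran from 12.9 to 48.3 M counts per time course library and from 17.6 to 28.5 M per drug library. A floor of 3 counts corresponded to 0.0621 to 0.232 CPM (counts scaled to the size of the library) in the time course and 0.105 to 0.17 CPM in the drug table. All 8 neuron markers were measured in both tables, and their summed level lay between 5455 and 8290 CPM in untreated libraries and between 4442 and 6655 CPM in the drug experiment. Levels are in CPM, not corrected for transcript length, so they are compared across libraries for 1 gene and not between genes. In bulk RNA from whole brains, fewer cells of a type and less RNA per cell cannot be told apart.

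Across the 6 stages thrb climbed without a break, thra rose more slowly, dio2 peaked in the middle of the series and klf9 dipped there. A call meant that edgeR's quasi-likelihood test gave a p under 0.05 after Benjamini-Hochberg adjustment over the whole table. Of the 6 measured genes 5 differed among stages, all but dio3 (adjusted p = 0.0546), beside 88.4% of all genes tested. The call of rxra (adjusted p = 0.0251) was lost without stage 42 replicate 3 or stage 47 replicate 1 or 3 (adjusted p from 0.0532 to 0.0771), and dio3 was called without stage 44 replicate 2 or stage 45 replicate 3 (0.0455 and 0.0282). Between stage 47 and stage 40 also 5 of 6 were called, 4 higher and 1 lower, where 80.8% of all genes were called (40.0% higher and 40.8% lower). Most genes moved between these stages, so the counts of axis genes lay close to the background.

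**Figure D1:**
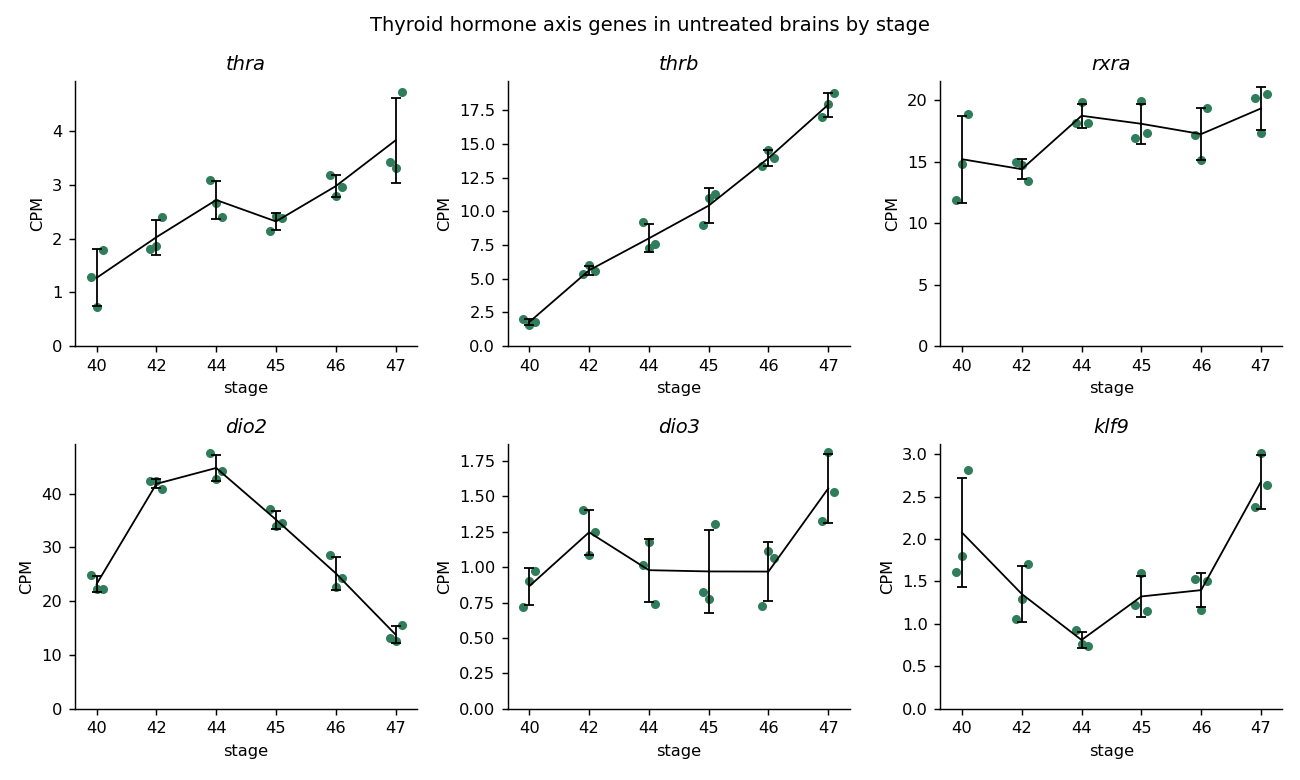
Levels in CPM of the 6 axis genes measured in untreated brains, against stage. Points are single libraries, the line joins the means, and bars are SD (n = 3). The thrb means climb at every stage from 1.78 to 17.9 CPM, while dio2 peaks at 44.8 CPM at stage 44 and klf9 has its lowest mean, 0.811 CPM, there.

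The β receptor gene thrb had 2.0, 1.58 and 1.77 CPM at stage 40, then 5.32, 6.01 and 5.54 CPM at stage 42. It had 9.19, 7.26 and 7.54 CPM at stage 44, and 8.96, 11.01 and 11.3 CPM at stage 45. At stage 46 it had 13.3, 14.6 and 13.95 CPM, and at stage 47 it had 17, 18 and 18.8 CPM. Each stage stood above the one before it with no shared range, except that the ranges of stages 45 and 44 overlapped. The mean of 17.9 ± 0.891 CPM at stage 47 was 10.0-fold that of 1.78 ± 0.21 CPM at stage 40 (SD, n = 3 each), a log2 fold change of 3.33 ± 0.13 (SE, adjusted p = 1.9e-16).

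The step from stage 40 to stage 42 was the largest of the thrb steps (log2 fold change 1.65 ± 0.14, adjusted p = 5.77e-09). Here 47.0% of all genes were called, and 3 of the 6 axis genes. The step to stage 44 was 0.51 ± 0.12 (adjusted p = 0.0273), and thrb was the only axis gene called in it, beside 2.32% of all genes. That call was lost without stage 42 replicate 2 or 3 or stage 44 replicate 1, with log2 fold changes of 0.56, 0.50 and 0.41. The step to stage 45 was 0.37 ± 0.12 (adjusted p = 0.0247), with 2 of 6 axis genes called beside 22.8% of all genes. It was lost without stage 44 replicate 2 or 3 or stage 45 replicate 2 or 3, with values from 0.30 to 0.33.

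The last thrb steps were called whichever library was left out. From stage 45 to stage 46 the log2 fold change was 0.43 ± 0.11 (adjusted p = 0.00419), and 2 of 6 axis genes were called beside 42.1% of all genes. From stage 46 to stage 47 it was 0.36 ± 0.11 (adjusted p = 0.00884), and 3 of 6 were called beside 48.8% of all genes. No other axis gene was called at every step.

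The α receptor gene thra, known in Xenopus as the receptor present early in development, rose too, on few reads (13 to 102 counts per library). It had 3.43, 3.32 and 4.73 CPM at stage 47, against 1.28, 0.734 and 1.79 CPM at stage 40. The groups did not overlap, and the log2 fold change was 1.498 ± 0.23 (adjusted p = 3.6e-06). No step between adjacent stages was called for thra. In the order of its means, stages 42, 45, 44 and 46 each overlapped with their neighbour, between 2.02 and 2.97 CPM, and stages 40 and 47 stood apart below and above them.

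Within a library the count of thrb can be set over that of thra, which removes the library size. This ratio had a median of 1.57 at stage 40, 2.94 at stage 42, 2.97 at stage 44, 4.54 at stage 45, 4.72 at stage 46 and 4.96 at stage 47. The ratios of 4.96, 5.42 and 3.97 at stage 47 all lay above those of 1.57, 2.15 and 0.988 at stage 40. The mean log2 ratio differed by 1.67, and an exact two-sided permutation test gave p = 0.1, the smallest that 3 against 3 libraries allow.

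The partner receptor gene rxra changed little. It had 20.2, 17.3 and 20.5 CPM at stage 47, against 11.9, 14.8 and 18.9 CPM at stage 40, and these ranges overlapped. The log2 fold change was 0.32 ± 0.13 (adjusted p = 0.0232). The call was lost without stage 40 replicate 1 or 2 or stage 47 replicate 1 or 3, with values from 0.20 to 0.30 and adjusted p from 0.0634 to 0.117; without stage 40 replicate 3 the log2 fold change was 0.56. All stage means of rxra lay between 14.4 and 19.4 CPM, and each overlapped with its neighbour in the order.

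The activating deiodinase gene dio2 had 24.9, 22.3 and 22.3 CPM at stage 40, then 42.3, 42.3 and 40.9 CPM at stage 42. It had 47.5, 42.6 and 44.2 CPM at stage 44, and 37.1, 33.9 and 34.5 CPM at stage 45. At stage 46 it had 28.6, 22.6 and 24.3 CPM, and at stage 47 it had 13.2, 12.6 and 15.7 CPM. The gene thus stood high at stages 42 and 44, returned at stage 46 to a range that overlapped with stage 40, and was lowest at stage 47, where no library overlapped with any other stage.

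The dio2 level rose into stage 42 (log2 fold change 0.85 ± 0.09, adjusted p = 5.15e-08). It then fell by 0.35 on the log2 scale into stage 45, by 0.49 into stage 46 and by 0.86 into stage 47 (SE 0.09 each). The adjusted p-values of these falls were 0.00515, 0.000125 and 9.29e-08. At stage 47 dio2 averaged 13.8 ± 1.65 CPM and at stage 40 it averaged 23.2 ± 1.47 CPM (SD, n = 3 each), a log2 fold change of -0.74 ± 0.09 (adjusted p = 1.24e-07). All of these calls were kept whichever library was left out.

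Marker lists of several cell types moved over the same stages. For neural progenitors and radial glia, the summed level of the 7 measured markers of 8 listed, none of them at 0, ran from 4942 to 5732 CPM at stage 40 and from 5104 to 5386 CPM at stage 42. It ran from 4571 to 5260 CPM at stage 44, 3529 to 3757 CPM at stage 45, 3221 to 3522 CPM at stage 46 and 2603 to 2779 CPM at stage 47. The 6 measured retina and lens markers of 14 summed to 107 to 118 CPM at stage 40, 114 to 123 CPM at stage 42 and 100 to 106 CPM at stage 44. They then summed to 56.9 to 81.4 CPM at stage 45, 44.3 to 52.4 CPM at stage 46 and 33.5 to 42.9 CPM at stage 47. The 7 measured epidermal markers of 11 summed to 250 to 291 CPM at stage 47 and 414 to 437 CPM at stage 40. Not all of them fell: krt61 was at 0 in all stage 40 libraries and had 5.14 to 9.82 CPM at stage 47. Likewise krt12.5 had 0.0865 to 0.564 CPM at stage 40 and 1.37 to 11.5 CPM at stage 47. The part of these markers in the dio2 pattern was not tested.

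The inactivating deiodinase gene dio3 was near 1 CPM throughout (11 to 45 counts per library). It had 1.32, 1.82 and 1.53 CPM at stage 47, against 0.722, 0.903 and 0.973 CPM at stage 40, with no overlap. The log2 fold change was 0.81 ± 0.27 (adjusted p = 0.00865). With limma on the deposited quantile-normalized values it was 0.11 and the call was lost. No adjacent step was called, and in the order of its means each stage overlapped with the next.

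The count of dio2 over that of dio3 in the same library had a median of 24.8 at stage 40, 32.8 at stage 42, 46.8 at stage 44, 43.7 at stage 45, 22.8 at stage 46 and 9.93 at stage 47. Stage 47 libraries, at 9.93, 6.91 and 10.2, all lay below those of stage 40, at 34.5, 24.8 and 23.0. The mean log2 ratio was lower by 1.60 at stage 47 (difference -1.60, exact two-sided permutation p = 0.1, the smallest possible here).

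**Figure D2:**
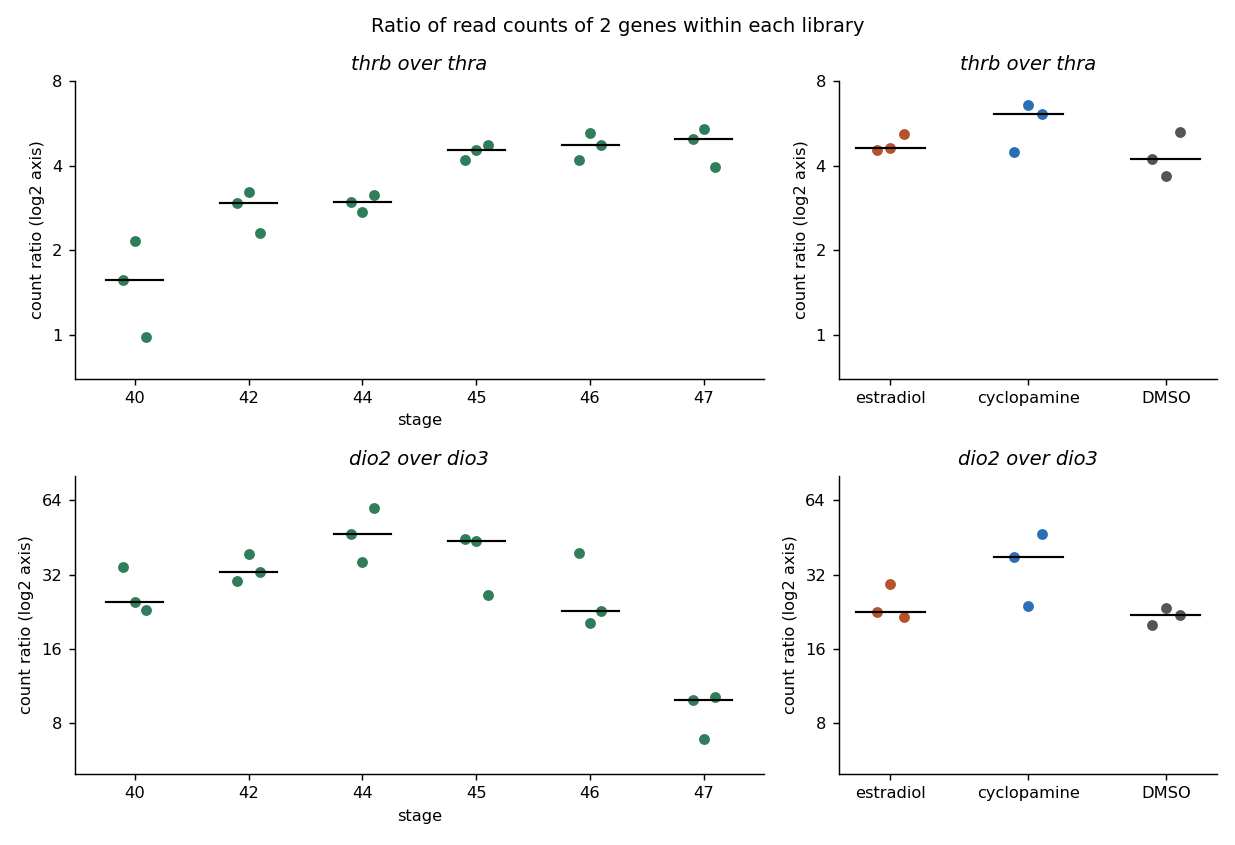
Ratio of the read counts of thrb over thra (top) and of dio2 over dio3 (bottom) within each library, on a log2 axis, by stage (left) and by drug group (right). Points are libraries and lines are medians. The thrb over thra median goes up to 4.96 at stage 47, and the dio2 over dio3 median has its low of 9.93 there; ratios are not corrected for transcript length.

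The response gene klf9, which encodes a Krüppel-like transcription factor that corticosteroids also induce, went down and then up. It had 1.61, 1.81 and 2.81 CPM at stage 40, then 1.05, 1.30 and 1.71 CPM at stage 42. It had 0.923, 0.767 and 0.741 CPM at stage 44, and 1.22, 1.60 and 1.15 CPM at stage 45. At stage 46 it had 1.53, 1.17 and 1.502 CPM, and at stage 47 it had 2.38, 3.01 and 2.64 CPM. Stage 44 lay below all other stages without overlap, and stage 47 lay above stages 42 to 46 but overlapped with stage 40.

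The means of klf9 at stages 47 and 44 differed 3.30-fold, and the test among all stages gave an adjusted p of 3.94e-05. From stage 46 to stage 47 klf9 rose by 0.93 ± 0.25 on the log2 scale (adjusted p = 0.00388), whichever library was left out. The earlier fall, from stage 40 to stage 42 (-0.66 ± 0.25, adjusted p = 0.0317), was lost without stage 40 replicate 3, at -0.32, and without stage 42 replicate 1 or 2, at -0.51 and -0.63. Stage 47 against stage 40 was not called (0.31 ± 0.23, adjusted p = 0.22); without stage 40 replicate 3 it was called, at 0.66.

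Over the 18 untreated libraries, the measured genes whose log2 CPM followed each axis gene most closely were as follows, given as Pearson's r. For thrb they were tmeff2 (0.991), tmem145 (0.988) and kcnc2 (0.987), and for thra pdlim5 (0.921), nab1 (0.912) and ptprb (0.905). For dio2 they were adh5 (0.979), prdx1 (0.958) and cyp51a1 (0.958), and for klf9 pld1 (0.864), frmd4a (0.858) and peli1 (0.858). The closest r was 0.788 for rxra, with wnk1, and 0.783 for dio3, with stard8. These values describe libraries that share stages and scaling, and they carry no test.

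Upstream and around these genes, 67 of 83 further listed genes of hormone drive, transport, receptor cofactors, response and selenoprotein synthesis were measured in the time course. Of them 59 differed between stage 47 and stage 40, 31 higher and 28 lower, which is 88.1% beside 80.8% of all genes. Among 23 listed genes of hormone synthesis and drive 14 were measured. Of these 13 were called, 11 higher and 2 lower, with a median log2 fold change of 1.83 where all genes had -0.01. Of 8 listed thyroid gland markers only 2, pax8 and tshr, were measured. Most genes of hormone synthesis in the gland are thus not covered by this median. Among hormone transport and binding genes all 9 measured were called, 7 higher and 2 lower, with a median of 1.17.

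The gene trh encodes the peptide that releases thyrotropin in mammals, a role that in tadpoles falls mainly to corticotropin-releasing hormone. It averaged 143 ± 5.94 CPM at stage 47 and 34.5 ± 10.2 CPM at stage 40, a log2 fold change of 2.09 ± 0.17. The receptor genes trhr and trhr2 rose by 2.595 ± 0.20 and 2.19 ± 0.14, and trhde, whose product degrades the peptide, rose by 1.48 ± 0.09. These calls of stage 47 against stage 40 were kept whichever library was left out.

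The thyrotropin β subunit gene tshb, made in the pituitary, had 7.13, 6.12 and 9.97 CPM at stage 47, against 0.722, 0.395 and 0.519 CPM at stage 40. These groups lay far apart, and the log2 fold change was 3.83 ± 0.31. Its α subunit partner cga rose by 1.57 ± 0.20, to 5.79 ± 0.445 CPM at stage 47, against 1.94 ± 0.125 CPM at stage 40. The thyrotropin receptor gene tshr had the largest rise of those named, 4.97 ± 0.34. It had 6.67, 6.28 and 7.37 CPM at stage 47, against 0.167, 0.339 and 0.173 CPM at stage 40. The floor of 3 counts was 0.158 CPM in stage 40 replicate 1, by its total without the TMM factor (0.947) that the levels include. The 0.167 CPM of that library thus lies at the floor, so the size of this rise rests on few reads. The 12 measured pituitary markers of 13 listed, which include tshb and cga, summed to 291 to 316 CPM at stage 47 and 107 to 141 CPM at stage 40, and their part in these rises was not tested.

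Transporters split. The thyroxine transporter gene slco1c1 rose by 1.71 ± 0.39, a call lost with limma on the quantile-normalized values. The amino acid transporter subunits slc3a2 and slc7a8, which also carry the hormone, rose by 1.17 ± 0.06 and 0.87 ± 0.05. In the other direction, slc16a10, which encodes a transporter of aromatic amino acids and thyroid hormone, changed by -0.82 ± 0.13, and crym, whose product binds triiodothyronine in the cytosol, changed by -1.03 ± 0.29.

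Among receptor partners and cofactors 16 of 21 measured were called, 8 in each direction. The sister genes of rxra went opposite ways: rxrb had a log2 fold change of -0.95 ± 0.06 and rxrg of 1.04 ± 0.13. The methyltransferase prmt1, a receptor coactivator in Xenopus, fell by 2.41 on the log2 scale (SE 0.06), and the chromatin remodeller smarca4 fell by 1.099 (SE 0.07). Of 20 measured genes known to respond to the hormone in Xenopus, 17 were called, 5 higher and 12 lower, and both this list and the cofactor list lay close to the 80.8% called over all genes. Of the axis genes measured here, the response list includes thrb, klf9 and dio3, and the cofactor list includes rxra. The metalloproteinase genes mmp11 and mmp14 (-1.01 ± 0.20 and -1.01 ± 0.07) and the histone methyltransferase gene dot1l (-0.60 ± 0.06) were lower at stage 47, while the DNA methyltransferase gene dnmt3a (0.90 ± 0.06) and the transcription factor gene cebpd (3.75 ± 0.15) were higher.

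Deiodinases are selenoproteins. All 9 measured genes of that list were called for stage 47 against stage 40, 4 higher and 5 lower. Of all genes 80.8% were called here, 40.0% higher and 40.8% lower, so this count is not read as particular to the list. The list includes dio2 and dio3. The selenium carrier gene selenop1 rose by 3.42 ± 0.07, to 283 CPM at stage 47 against 26.4 CPM at stage 40. The gene eefsec, which encodes the elongation factor for selenocysteine, fell by 0.96 on the log2 scale (SE 0.10), and sephs1, which encodes a homolog of selenophosphate synthetase, fell by 0.86 (SE 0.07). In the other direction, secisbp2, whose product binds the selenocysteine insertion element, and sepsecs, whose product makes the selenocysteine on its transfer RNA, had 0.58 ± 0.10 and 0.27 ± 0.10. The sepsecs call was lost without stage 47 replicate 3, at 0.23 (adjusted p = 0.0703), and with limma, at 0.195. Both genes were named after their values were seen.

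Drug brains were compared at stage 46 with DMSO brains, to ask how an estrogen and a Hedgehog pathway blocker changed the brain transcriptome. With estradiol edgeR called 0 of 7, beside 2.07% of all genes; 1 of 7, dio2, had an unadjusted p under 0.05, and DESeq2 called it. With cyclopamine 1 of 7 was called, dio2, beside 19.6% of all genes. Between the drugs 1 of 7 was called, klf9, beside 6.77% of all genes. Both drug comparisons use the same DMSO libraries.

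Over all genes, estradiol against DMSO gave 200 higher and 135 lower calls, and 86 and 111 with limma on the quantile-normalized values. With DESeq2 it gave 838 and 613. Cyclopamine against DMSO gave 1616 higher and 1555 lower calls, and 1763 and 862 with RLE (relative log expression) size factors. With DESeq2 it gave 2313 and 1464. Estradiol against cyclopamine gave 675 higher and 422 lower, and 473 and 516 with RLE size factors.

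**Figure D3:**
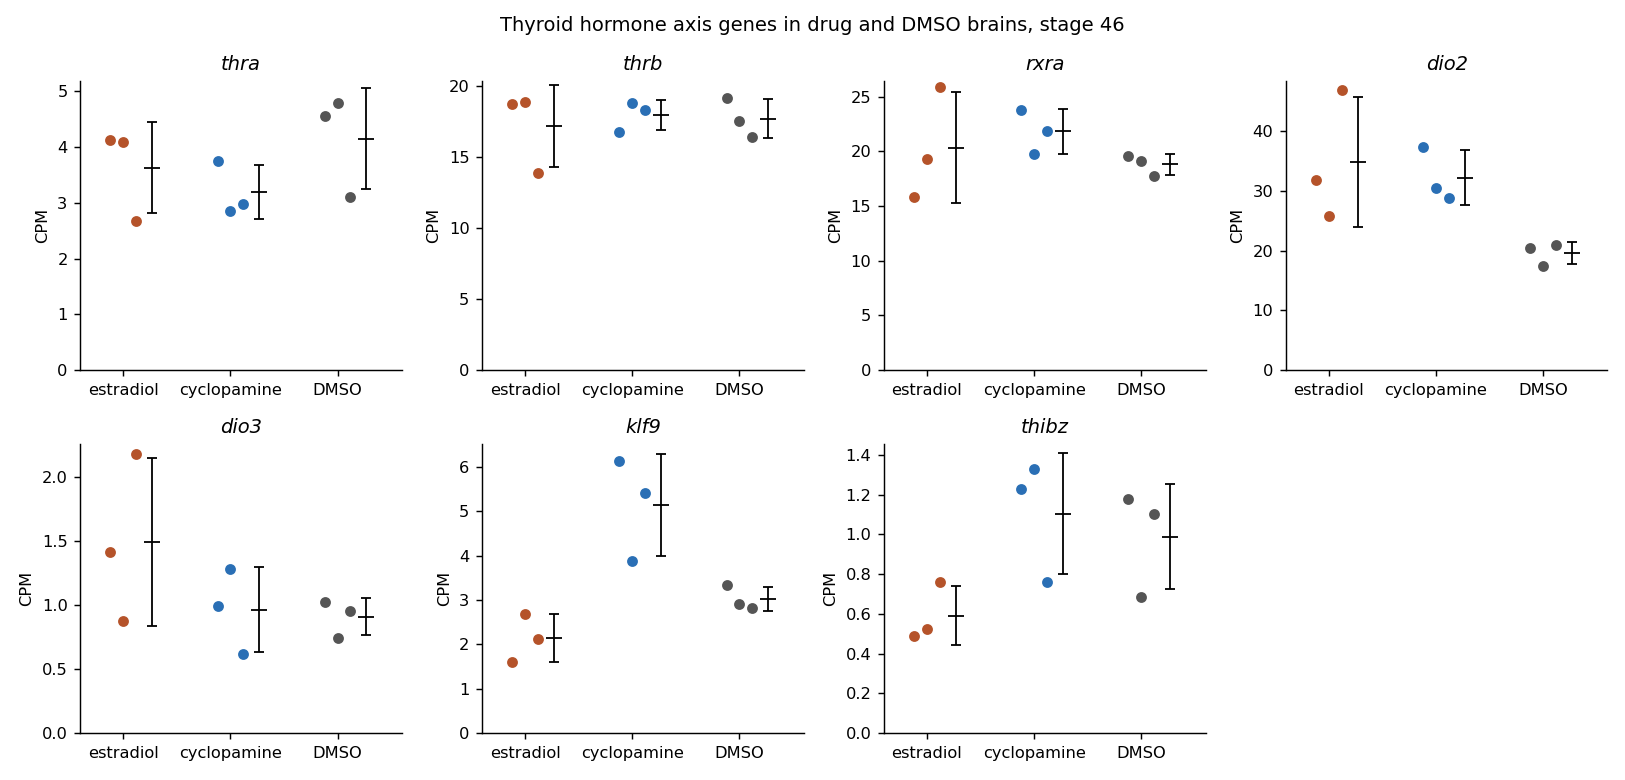
Levels in CPM of the 7 axis genes measured in stage 46 brains exposed to estradiol or cyclopamine and in DMSO brains. Points are libraries, and the bar beside them is the mean with its SD (n = 3). For dio2 both drug groups lie above DMSO, and for klf9 estradiol libraries lie below and cyclopamine libraries above DMSO libraries.

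The receptor genes showed no called change. The thrb level was 18.8, 18.9 and 13.9 CPM with estradiol, 16.8, 18.8 and 18.3 CPM with cyclopamine, and 19.2, 17.6 and 16.4 CPM with DMSO. These ranges overlapped, and the log2 fold change was -0.04 ± 0.14 for estradiol and 0.02 ± 0.14 for cyclopamine against DMSO. The signs of both turned when single libraries were left out. For thra the values were -0.19 ± 0.25 (0.02 without estradiol replicate 3) and -0.37 ± 0.25, with 2.69 to 4.13 CPM with estradiol, 2.85 to 3.76 CPM with cyclopamine and 3.11 to 4.80 CPM with DMSO. For rxra they were 0.11 ± 0.17 (-0.07 without estradiol replicate 3) and 0.21 ± 0.17, with 15.9 to 25.9 CPM with estradiol, 19.8 to 23.8 CPM with cyclopamine and 17.8 to 19.6 CPM with DMSO.

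The dio2 level was 31.8, 25.7 and 46.9 CPM with estradiol, 37.4, 30.5 and 28.7 CPM with cyclopamine, and 20.5, 17.5 and 20.9 CPM with DMSO. All libraries of each drug lay above all DMSO libraries, while the drugs overlapped with each other. Cyclopamine brains averaged 32.2 ± 4.57 CPM and DMSO brains 19.6 ± 1.87 CPM (SD, n = 3 each), a log2 fold change of 0.71 ± 0.20 (adjusted p = 0.0336). The call was lost without cyclopamine replicate 1 or 2, at 0.65 and 0.75, and without DMSO replicate 1, 2 or 3, at 0.74, 0.64 and 0.76 (adjusted p from 0.0538 to 0.118).

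With estradiol dio2 averaged 34.8 ± 10.9 CPM, a log2 fold change against DMSO of 0.82 ± 0.20 that missed the threshold (adjusted p = 0.0626, unadjusted p = 0.00198). Without estradiol replicate 2 it was called, at 1.0 (adjusted p = 0.0185). Estradiol against cyclopamine differed by 0.11 ± 0.20 for dio2 (adjusted p = 0.809), and the sign turned without estradiol replicate 3 (-0.20) or cyclopamine replicate 3 (-0.03).

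Marker sums of other cell types differed between the drug groups as well. The summed level of the 7 measured neural progenitor and radial glia markers was 4003, 3982 and 5647 CPM with estradiol, 4512, 3352 and 3804 CPM with cyclopamine, and 3251, 3228 and 4053 CPM with DMSO. Estradiol replicate 3 had both the highest dio2 level and the highest sum. DMSO replicate 3, at 4053 CPM, had a higher sum than estradiol replicates 1 and 2. Its dio2 level was lower, at 20.9 CPM against 31.8 and 25.7 CPM. The 12 measured choroid plexus markers of 16 summed to 180, 307 and 390 CPM with estradiol. With cyclopamine they summed to 245, 151 and 219 CPM, and with DMSO to 248, 184 and 199 CPM. Estradiol replicate 3 was highest here too, while estradiol replicate 1 lay below all DMSO libraries. The glutamate transporter gene slc1a3 made up the largest share of the progenitor and radial glia sum. It had 1980 to 2768 CPM with cyclopamine and 1525 to 1814 CPM with DMSO. Other markers of the list lay the other way: with cyclopamine sox3 had 61.1 to 77.9 CPM, pax6 64.9 to 70.4 CPM and fabp7 613 to 782 CPM. With DMSO sox3 had 133 to 150 CPM, pax6 88.5 to 115 CPM and fabp7 876 to 1256 CPM. The sum of the 7 measured retina and lens markers of 14 was lower with the drugs. It was 33.7 to 40.7 CPM with estradiol, 20.7 to 35.2 CPM with cyclopamine and 52.8 to 58.7 CPM with DMSO. Single markers differed from the sum: cryaa had 1.29 to 2.69 CPM with estradiol and 0.228 to 1.59 CPM with DMSO. In cyclopamine replicate 3 crx had 8.21 CPM, within the DMSO range of 7.73 to 9.68 CPM. The 9 measured epidermal markers of 11 summed to 385 to 522 CPM with estradiol, 579 to 958 CPM with cyclopamine and 336 to 381 CPM with DMSO. Of them krt8.1 had the largest share in every library. In the other direction, krt61 had 0.827 to 2.83 CPM with estradiol, 0.0791 to 0.246 CPM with cyclopamine and 9.94 to 16.1 CPM with DMSO. Within the drug groups cldn4 varied, from 1.67 to 12.4 CPM with estradiol and from 0.633 to 37.4 CPM with cyclopamine. The 8 measured skeletal muscle markers of 13 summed to 30.3 to 47.6 CPM with estradiol, 80.6 to 156 CPM with cyclopamine and 12.3 to 16.5 CPM with DMSO. None of these markers was at 0 in all libraries of a group, and their part in the dio2 and klf9 values was not tested.

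The dio3 level was 1.41, 0.873 and 2.18 CPM with estradiol, 0.989, 1.28 and 0.617 CPM with cyclopamine, and 1.02, 0.743 and 0.953 CPM with DMSO. These ranges overlapped, and the log2 fold change was 0.69 ± 0.40 (adjusted p = 0.336) for estradiol and 0.08 ± 0.41 (adjusted p = 0.904) for cyclopamine. The count ratio of dio2 over dio3 was 22.5, 29.4 and 21.5 with estradiol, 37.8, 23.8 and 46.5 with cyclopamine, and 20, 23.5 and 21.9 with DMSO. All cyclopamine ratios lay above all DMSO ratios, by a mean of 0.67 on the log2 scale (exact two-sided permutation p = 0.1, the smallest possible), and for estradiol the difference was 0.15 (exact p = 0.5). The count ratio of thrb over thra had medians of 4.63 with estradiol, 6.13 with cyclopamine and 4.21 with DMSO, and the exact p against DMSO was 0.5 for estradiol and 0.2 for cyclopamine.

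The klf9 level was 1.60, 2.69 and 2.13 CPM with estradiol, 6.13, 3.89 and 5.41 CPM with cyclopamine, and 3.33, 2.91 and 2.81 CPM with DMSO. The 3 groups did not overlap: estradiol lay below DMSO and cyclopamine above it. The drugs differed, with a log2 fold change of estradiol over cyclopamine of -1.26 ± 0.25 (adjusted p = 0.0171). That call was lost without cyclopamine replicate 1 or 3, at -1.16 and -1.28 (adjusted p = 0.0548 and 0.0511). It was also lost when the DMSO libraries were left out of the fit.

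Against DMSO klf9 missed the threshold with each drug. The log2 fold change was -0.49 ± 0.26 for estradiol (adjusted p = 0.289) and 0.77 ± 0.25 for cyclopamine (adjusted p = 0.053). The cyclopamine value was called without cyclopamine replicate 2, at 0.93, and also with RLE size factors, with DESeq2 and in a fit of those 2 groups alone.

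The gene thibz, which encodes a bZIP transcription factor, had few reads, 10 to 31 counts per library. It had 0.486, 0.524 and 0.760 CPM with estradiol, 1.23, 1.33 and 0.759 CPM with cyclopamine, and 1.18, 0.685 and 1.104 CPM with DMSO. Estradiol libraries overlapped with both other groups. The log2 fold change was -0.75 ± 0.38 for estradiol (adjusted p = 0.263) and 0.15 ± 0.36 for cyclopamine (adjusted p = 0.779), and -0.91 ± 0.37 between the drugs (adjusted p = 0.173, unadjusted p = 0.0322).

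Of the 67 measured further genes of the axis, 5 were called with estradiol, 1 higher and 4 lower, which is 7.46% beside 2.07% of all genes. With cyclopamine 23 were called, 10 higher and 13 lower, which is 34.3% beside 19.6%. Hormone synthesis and drive held 4 of the 5 called with estradiol and 9 of the 23 called with cyclopamine. Of the 23 genes listed there 14 were measured. The median of that list was -0.32 with estradiol and -0.30 with cyclopamine, where all genes had 0.01 and -0.08.

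The tshb level was 0.681, 0.489 and 0.557 CPM with estradiol, 0, 0 and 0.237 CPM with cyclopamine, and 3.18, 4.86 and 3.21 CPM with DMSO. Both drug groups lay far below DMSO. The counts behind these values were 11 to 14 with estradiol, 0 to 5 with cyclopamine and 62 to 85 with DMSO. With estradiol the log2 fold change was -2.70 ± 0.54 (adjusted p = 0.0363). That call was lost without estradiol replicate 1 or 3 and without each DMSO library. It was also lost with a replicate block. Over all fits that left out 1 estradiol or DMSO library, the values ran from -2.83 to -2.47 (adjusted p up to 0.158). With cyclopamine the log2 fold change was -5.52 ± 0.71 (adjusted p = 0.000925), and its size rests on replicate 3, the library with the 5 counts.

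The subunit gene cga had 2.63, 2.34 and 1.17 CPM with estradiol, 0.870, 2.07 and 1.61 CPM with cyclopamine, and 5.33, 5.14 and 6.92 CPM with DMSO. All drug libraries lay below all DMSO libraries. The log2 fold change was -1.496 ± 0.35 for estradiol (adjusted p = 0.0569) and -1.94 ± 0.36 for cyclopamine (adjusted p = 0.00618). Pituitary markers, tshb and cga among them, summed to 41.6 to 65.5 CPM with estradiol, 46.1 to 66.8 CPM with cyclopamine and 173 to 227 CPM with DMSO. In this list gh1 and prl.2, which encode growth hormone and a prolactin, were at 0 in all estradiol libraries. The marker lhb went the other way, with 8.42 to 12.4 CPM with estradiol and 6.57 to 7.12 CPM with DMSO. With cyclopamine lhb had 5.76 to 9.18 CPM, which overlapped with DMSO. The part of these markers in the fall of tshb and cga was not tested.

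Further upstream, trh showed no called change, with 102 to 193 CPM with estradiol, 106 to 190 CPM with cyclopamine and 153 to 174 CPM with DMSO. The receptor gene trhr fell by 1.15 with estradiol on the log2 scale (SE 0.21, adjusted p = 0.023), a call lost without any 1 DMSO library. Over all fits that left out 1 estradiol or DMSO library, the trhr values ran from -1.23 to -1.03. The factor nkx2-1, which marks hypothalamus and thyroid, fell by 1.90 with estradiol (SE 0.24, adjusted p = 0.00735) and by 1.93 with cyclopamine (SE 0.24). The oxidase gene duox1 rose by 1.57 ± 0.16 with estradiol and 1.93 ± 0.16 with cyclopamine. Its product supplies hydrogen peroxide for hormone synthesis in the thyroid. The epidermal marker sums above were higher in those libraries as well, though krt61 of that list was lower, and a link was not tested. Calls of nkx2-1 and duox1 were kept whichever library was left out.

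**Figure D4:**
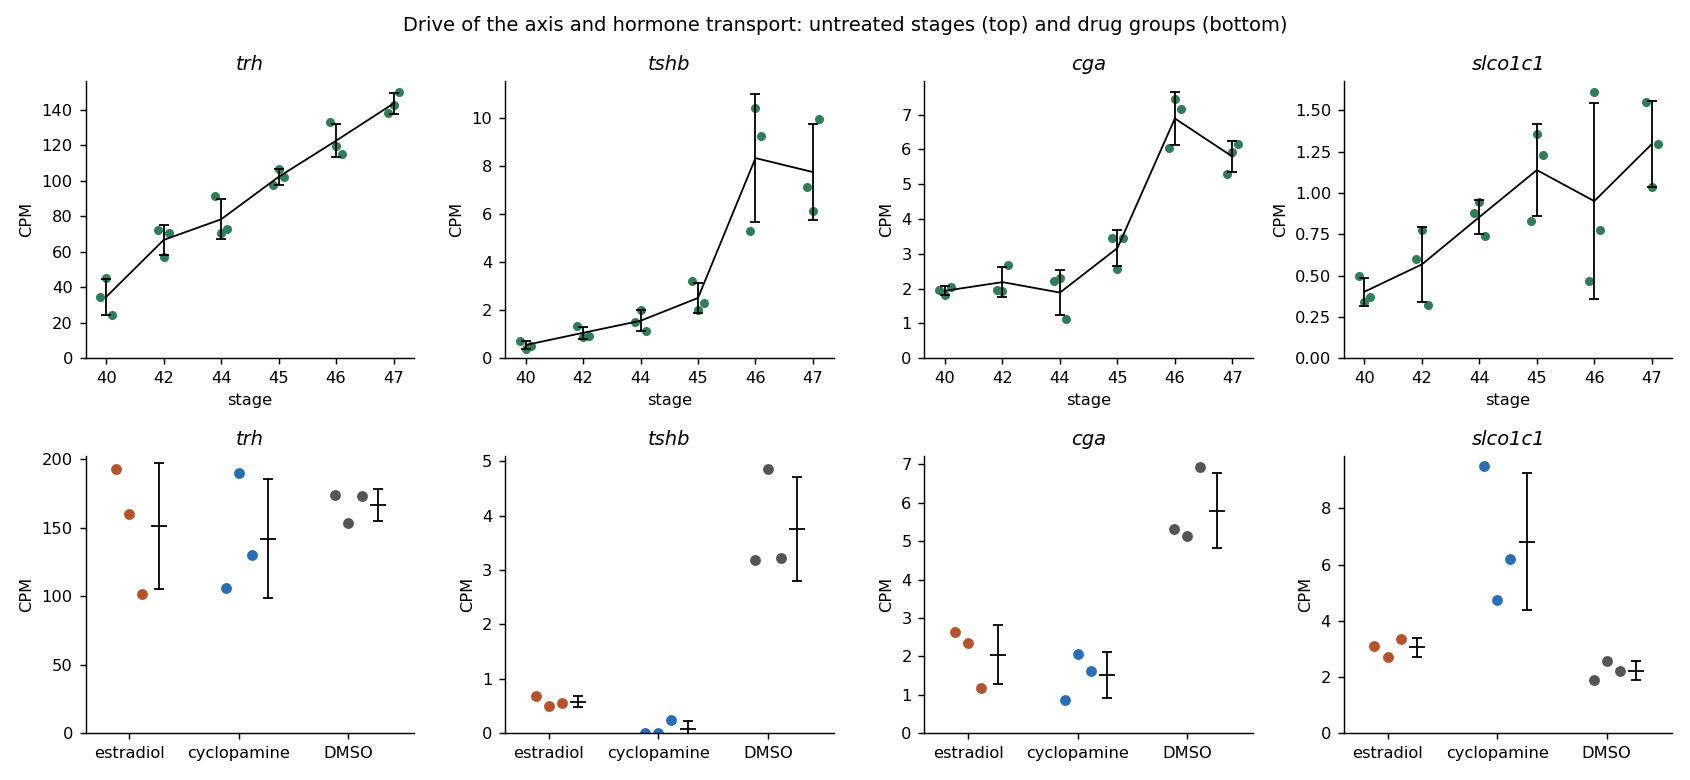
Levels in CPM of trh, tshb, cga and slco1c1 in untreated brains by stage (top) and in stage 46 drug and DMSO brains (bottom). Points are libraries, and bars are SD around the mean (n = 3), cut at 0. The genes tshb and cga lie below DMSO in all drug libraries, trh overlaps between the groups, and slco1c1 is highest with cyclopamine, at 4.73 to 9.496 CPM.

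Of 9 measured transport and binding genes edgeR called 0 with estradiol, beside 2.07% of all genes. There 1 had an unadjusted p under 0.05 in edgeR, and DESeq2 called 1. With cyclopamine 2 of the 9 were called, both higher, beside 19.6% of all genes, so the counts of this list lay near the background. The slco1c1 level was 9.496, 4.73 and 6.22 CPM with cyclopamine, against 1.90, 2.57 and 2.21 CPM with DMSO, a log2 fold change of 1.62 ± 0.27 (adjusted p = 0.00377). The groups lay apart, and the call was kept whichever library was left out. The crym level was 5.03, 2.85 and 3.56 CPM with cyclopamine, against 1.33, 1.03 and 1.76 CPM with DMSO (1.47 ± 0.32, adjusted p = 0.0118), a call lost without DMSO replicate 1 or 2 (values over all such fits from 1.27 to 1.69).

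Of 21 measured response genes of the list, 1 was called with estradiol and 5 with cyclopamine, 2 higher and 3 lower, and DESeq2 called 4 and 8. Over all genes edgeR called 2.07% with estradiol and 19.6% with cyclopamine. The edgeR counts of the response and cofactor lists lay near these shares. DESeq2 called more genes over all, 838 higher and 613 lower with estradiol and 2313 higher and 1464 lower with cyclopamine. Its list counts are thus not set against the edgeR shares. With cyclopamine the transglutaminase gene tgm2 rose by 1.39 ± 0.22 and mmp14 by 1.07 ± 0.20, while the demethylation enzyme gene tet3 fell by 0.61 on the log2 scale (SE 0.11). Of the 21 receptor partners and cofactors edgeR called 0 with estradiol (3 at an unadjusted p under 0.05 and 0 with DESeq2), and 5 with cyclopamine (5 with DESeq2), 1 higher and 4 lower. Among them the coactivator gene thrap3 had -0.27 ± 0.08, a call lost under several alternatives, including without any 1 library of either group (-0.28 to -0.20). In the selenoprotein list, which holds dio2, edgeR called 0 of 9 with estradiol (2 at an unadjusted p under 0.05 and 1 with DESeq2) and 3 with cyclopamine, also 3 with DESeq2.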

How the data were processed

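Brain RNA was poly(A)-selected for stranded libraries, per the labels' protocols. For each experiment the authors deposited 1 table of raw counts; STAR 2.7.3 is listed per the submitters' processing notes. Build, annotation, counter and strand setting were not given in the sources used here. A second deposited table per experiment holds log2(CPM + 1) values after full-quantile normalization, judging by its values. Rows with no gene symbol (19.5% of the time course table and 19.6% of the drug table) were tested and not named. Columns with values of no sample numbered 0.

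Each table was fitted separately, on all its groups, in edgeR 4.0.16 (R 4.3.3) with TMM factors, filterByExpr and the robust quasi-likelihood F-test, without covariates. Calls needed p under 0.05 after Benjamini-Hochberg adjustment over the whole table. SE was taken from the log2 fold change and its F value. CPM used TMM library sizes, and log2 CPM used a prior count of 2. Ratios of 2 genes were tested by exact permutation of libraries. Floors cover counting error only and use library totals without TMM factors. The edgeR fit was tested on simulated counts. Small changes were recovered less often for estradiol against DMSO than for stage 47 against 40. The false share of calls lay above the threshold set, by more in the time course. The simulation changed far fewer genes than were called for stage 47 against 40, so its false share need not hold for these data. No 2 replicates agreed within sampling noise (chi-square per gene at least 2.66). Replicate pairs had 2.66 to 13.5 in the time course and 3.55 to 17.2 with DMSO. They differed more with the drugs, at 30.2 to 57.1 with estradiol and 19.8 to 37.3 with cyclopamine. The drug fit shared its estimate of the spread over all these groups, and what that did to the calls was not tested.

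The axis genes and the gene lists were chosen with earlier results of these data known. Apart from the axis genes, the text names per list at most the 4 called genes with the lowest p in each of 4 comparisons. It also names genes with a defining role and the genes most correlated with each axis gene. The pituitary markers gh1, prl.2 and lhb, like thdl17, thdl18, secisbp2, sepsecs and the single cell type markers, were chosen after their values were seen. List names were matched to file symbols, in part through RefSeq synonyms. Alternatives were RLE factors, no filter, a filter at a mean of 5 CPM, DESeq2 1.42.0, limma 3.58.1 on the quantile-normalized log2 values, a replicate block, only the groups compared, and leaving out each library. Some genes that this rule names are not reported here.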

Additional observations from a re-analysis of the deposited data

How the results depend on the processing

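The number of axis genes called held within 1.5 times of its value under most alternatives. With a filter at 5 CPM only 3 axis genes were left, and all 3 were called among stages and for stage 47 against stage 40. Between the drugs 0 were called, as klf9, the gene called in the main fit, was removed by this filter. Stage 44 against stage 42 gave 0 with limma and with only the groups compared, and stage 45 against stage 44 gave 1 with only those groups. Estradiol against DMSO gave 1 with DESeq2. Cyclopamine against DMSO gave 2 with RLE size factors, DESeq2 and only those groups, and 0 when cyclopamine replicate 1 stood alone for its group. Estradiol against cyclopamine gave 0 with only those groups. The cause of the changes other than those from this filter was not tested.

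Leaving out 1 library gave 4 to 6 axis genes among stages and for stage 47 against stage 40, 2 to 3 for stage 42 against 40, 0 to 1 for stage 44 against 42, 1 to 2 for stage 45 against 44, 2 to 2 for stage 46 against 45 and 3 to 4 for stage 47 against 46. It gave 0 to 1 for each of the drug comparisons.

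Directions turned only among values that were not called. The log2 fold change of klf9 for stage 47 against 40 was -0.0082 with limma. For estradiol against DMSO, thrb was 0.015 with the filter at 5 CPM, and without single libraries it ranged from -0.12 to 0.12, thra from -0.36 to 0.018 and rxra from -0.067 to 0.26. For cyclopamine against DMSO, dio3 was -0.26 and thibz -0.20 with limma, and without single libraries thrb ranged from -0.035 to 0.12, dio3 from -0.17 to 0.38 and thibz from -0.044 to 0.43. For estradiol against cyclopamine, dio2 was -0.19 with cyclopamine replicate 1 alone and ranged from -0.20 to 0.29 without single libraries.

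Equal replicate numbers showed no clear pairing. Deviations of same-numbered libraries correlated with a median between -0.0128 and -0.000378 per number in the time course and between -0.156 and 0.0883 in the drug table. In the drug table each number had only 3 pairs of groups, with r from -0.314 to 0.213, and from 0.084 to 0.124 for replicate 2. So few pairs cannot decide whether those libraries were paired. With the replicate number as a replicate block, 5 axis genes were called among stages, 5 for stage 47 against 40, 4 for stage 42 against 40, 1, 2, 2 and 3 for the later steps, 0 for estradiol and 1 for cyclopamine against DMSO, and 1 between the drugs.

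Counts over all genes moved more. Estradiol against DMSO had 335 calls, 1451 with DESeq2, 206 with the filter at 5 CPM, 197 with limma and 27 to 1510 without single libraries. Cyclopamine against DMSO had 3171, 1813 with that filter, 1170 with cyclopamine replicate 1 alone and 1127 to 2633 without single libraries. Estradiol against cyclopamine had 1097, 1782 with DESeq2, 289 with only those groups, 329 with replicate 1 alone and 444 to 1482 without single libraries. Stage 44 against 42 had 373, 598 with DESeq2, 120 with only those groups and 143 to 1176 without single libraries. Counts per library were low for thibz, dio3, thra and klf9, and how far depth limits their calls was not tested.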

Other observations

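The DMSO brains and the untreated brains of stage 46 stand in tables that were normalized separately, so their levels are given side by side with no test. The thrb level averaged 17.7 ± 1.41 CPM in DMSO brains and 13.95 ± 0.621 CPM in untreated stage 46 brains, and klf9 averaged 3.02 ± 0.275 CPM in DMSO brains and 1.40 ± 0.2 CPM in untreated ones. The dio2 level averaged 19.6 ± 1.87 CPM in DMSO brains and 25.2 ± 3.07 CPM in untreated stage 46 brains, and tshb averaged 3.75 ± 0.96 CPM in DMSO brains and 8.32 ± 2.67 CPM in untreated ones (SD, n = 3 each).

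The genes thdl17 and thdl18, whose symbols mark them as hormone-downregulated in Xenopus, varied widely between libraries of the same drug group. The thdl18 level was 2.33, 17.4 and 0.0507 CPM with estradiol, 0.435, 66.9 and 225 CPM with cyclopamine, and 0.615, 2.23 and 2.41 CPM with DMSO. The thdl17 level was 0.681, 10.8 and 0 CPM with estradiol, 0, 6.35 and 104 CPM with cyclopamine, and 0.154, 0.286 and 0.452 CPM with DMSO. Both were highest in cyclopamine replicate 3, the library with the highest sum of epidermal markers (958 CPM), and that link was not tested.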
